A study of Mus musculus with 18 samples.

Results

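This account follows 7 genes used as surface or secreted markers of immature, junctional or progenitor thymic epithelial cells: Ly6a, Pdpn, Plet1, Itga6, Itgb4, Fst and Mgp. They were taken by name from the 23063 genes listed for every library. The files list 6 of them by symbol, and Plet1 stands there under its older symbol 1600029D21Rik, at the same coordinates as RefSeq's Plet1. The study sequenced RNA from thymic epithelial cells of mouse thymus, sorted by flow cytometry into cortical cells (cTEC) and medullary cells of a low (mTEClo) and a high (mTEChi) gate, from wild-type (WT) and Aire knockout (KO) mice. Each of the 6 groups held 3 libraries, 18 in all, from mice aged 6 to 8 weeks. The strain is given as B6.129S2-Airetm1.1Doi/J for every sample, the WT samples included, so the labels do not say which controls the WT mice were. They do not name the protein behind the low and high gates, nor say whether replicates were separate mice. The p-values therefore measure the spread between libraries, which may be technical.

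Thymic epithelial cells form the stroma in which T cells mature. Cortical cells support the early, positive selection of thymocytes, and medullary cells present tissue-restricted self antigens, many of them switched on by Aire, a nuclear regulator of transcription. In the medulla, cells of the low gate include precursors and terminally differentiated cells, and the high gate holds the mature cells that express Aire. Among the 7 genes, 3 encode surface proteins tied to membrane signalling or progenitor state (Ly6a, Pdpn, Plet1). The pair Itga6 and Itgb4 encodes the laminin receptor of hemidesmosomes, the junctions that fix epithelial cells to basement membrane. Fst and Mgp encode secreted proteins that bind growth factors of the activin and BMP families.

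Library depth ran from 4.54 to 18.1 Gb of summed base coverage. Levels are RPKM, reads scaled by gene length and by library size, as the authors deposited them. Fold changes are differences of log2(RPKM + 0.1), tested with limma over 19451 genes, and a gene was called at an adjusted p under 0.05. The Aire transcript stood at 658 to 693 RPKM in WT mTEChi, 7.75 to 12.8 in WT mTEClo and 2.09 to 7.39 in WT cTEC. Psmb11, a proteasome subunit that marks the cortex, stood at 11.3 to 21.8 RPKM in WT cTEC and 0.569 to 2.12 in the medullary groups. In KO mTEChi the Aire value was 1001 to 1126 RPKM. That value counts the gene as a whole, so it does not check the deletion. KO cTEC replicate 1 stood apart: its correlations with the other libraries of its group were 0.971 and 0.973, while all other pairs within groups lay between 0.983 and 0.995. Aire stood at 95.6 RPKM in that library and at 35.9 and 27.0 in the other KO cTEC libraries. In bulk libraries, fewer cells of a type and less RNA per cell cannot be told apart.

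The name of the set is only partly borne out by the levels. Among the 7 genes, 4 (Ly6a, Pdpn, Itgb4 and Fst) had their highest mean in WT cTEC and not in a medullary group. Itga6 and Mgp were highest in WT mTEClo, and Plet1 was highest in KO mTEClo. For Itgb4, Itga6 and Plet1 the libraries of the highest group overlapped with those of the next. For Ly6a the difference between WT cTEC and WT mTEClo was marginal (limma adjusted p = 0.0497). The lowest mean lay in KO mTEChi for 6 genes and in WT mTEChi for Itga6.

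**Figure D1:**
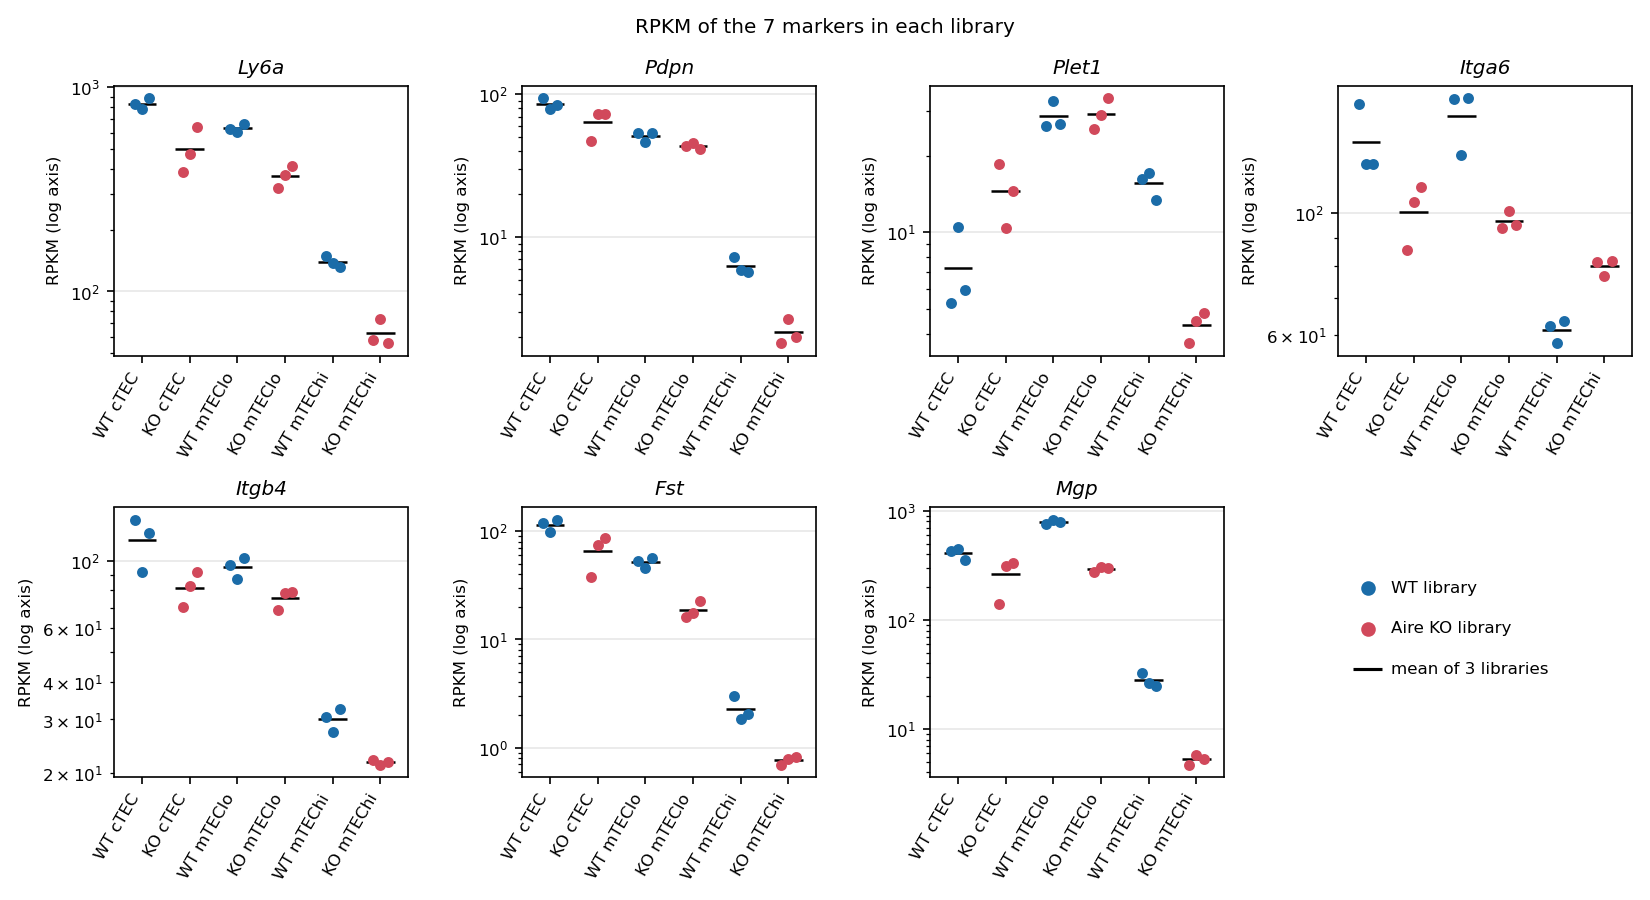
RPKM (log axis, a separate scale for each gene) of the 7 genes in the 18 libraries; points are libraries, blue for WT and red for KO, and black bars are means of 3 libraries. For 6 genes the mTEChi libraries lie below every other library, while Plet1 in WT mTEChi lies above WT cTEC and Itga6 spans the narrowest range.

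Ly6a encodes a lipid-anchored surface protein, Sca-1, used to mark stem and progenitor cells in several tissues. Its gene lies on the minus strand of chromosome 15 (mm10, 74994877 to 74998031). Per unit of length, it was the most abundant of the 7 genes in 4 of the 6 groups; Mgp was higher in WT mTEClo and Itga6 in KO mTEChi. In the order of replicates 1 to 3, its RPKM was 828, 784 and 885 in WT cTEC and 384, 472 and 640 in KO cTEC. All KO cTEC libraries lay below all WT cTEC libraries, with a wide spread within KO. The values were 622, 608 and 662 in WT mTEClo against 322, 371 and 412 in KO mTEClo. In mTEChi they were 149, 137 and 131 for WT and 57.7, 73.4 and 55.7 for KO. The genotypes did not overlap in any of the 3 populations. From the top, the order of group means was WT cTEC, WT mTEClo, KO cTEC, KO mTEClo, WT mTEChi and KO mTEChi, and the libraries of KO cTEC overlapped with both of its neighbours. Ly6a has close paralogs on the same chromosome, and how reads shared between them were counted is not given in the sources used here.

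Pdpn encodes podoplanin, a mucin-type membrane glycoprotein that binds the platelet receptor CLEC-2 and, through its cytoplasmic tail, the ezrin family. The gene spans 143267422 to 143299507 on the minus strand of chromosome 4. WT cTEC libraries held 94.0, 79.3 and 84.5 RPKM and KO cTEC libraries 47.4, 72.6 and 72.5. In mTEClo the values were 54.1, 46.5 and 53.8 for WT and 43.5, 45.4 and 41.3 for KO. Every WT library was above every KO library in both populations, by a small margin in mTEClo. The mTEChi libraries were far lower, at 7.20, 5.86 and 5.73 RPKM for WT and 1.797, 2.64 and 1.99 for KO. Pdpn thus covered a 40.1-fold range between the highest and the lowest group mean, from 85.9 ± 7.49 RPKM in WT cTEC (SD, n = 3) to 2.14 ± 0.443 in KO mTEChi.

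Plet1 encodes a lipid-anchored glycoprotein of the cell surface known from the early thymic rudiment and from hair follicle progenitors. It lies on the plus strand of chromosome 9 (50494525 to 50505639) and overlaps 2310014F07Rik, which was at most 0.689 RPKM in any library. WT cTEC libraries held 5.30, 10.5 and 5.94 RPKM, and KO cTEC libraries 18.6, 10.4 and 14.5. The highest WT cTEC library was just above the lowest KO cTEC library, so these groups overlapped. In mTEClo the values were 26.2, 32.8 and 26.7 for WT and 25.4, 28.8 and 33.7 for KO, which interleave. In mTEChi they were 16.2, 17.1 and 13.5 for WT and 3.67, 4.49 and 4.83 for KO, with no overlap. Plet1 was the only one of the 7 genes whose mean in WT cTEC was below that in WT mTEChi.

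Promoters from RefSeq (GRCm38.p6, the assembly also called mm10) were at hand for 2 of the 7 genes. Whether promoter motifs bear on the levels was not tested. The promoters of Pdpn and Plet1 are shown because they were available. Each runs from 250 bases before to 50 bases after the RefSeq start on the gene's own strand, at chr4:143299515-143299814 (minus strand) for Pdpn and chr9:50494275-50494574 (plus strand) for Plet1. Capitals mark matches, on either strand, to TATAAA (the TATA box), to CCAAT (the CCAAT box), to GGGCGG (the GC box) or to TGANTCA (the AP-1 site).
Pdpn: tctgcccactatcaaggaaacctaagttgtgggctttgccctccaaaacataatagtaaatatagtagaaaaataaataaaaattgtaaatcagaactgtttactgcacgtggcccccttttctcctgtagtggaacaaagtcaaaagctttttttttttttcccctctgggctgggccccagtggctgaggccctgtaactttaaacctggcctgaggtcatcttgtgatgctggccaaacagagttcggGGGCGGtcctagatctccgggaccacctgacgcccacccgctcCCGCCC
Plet1: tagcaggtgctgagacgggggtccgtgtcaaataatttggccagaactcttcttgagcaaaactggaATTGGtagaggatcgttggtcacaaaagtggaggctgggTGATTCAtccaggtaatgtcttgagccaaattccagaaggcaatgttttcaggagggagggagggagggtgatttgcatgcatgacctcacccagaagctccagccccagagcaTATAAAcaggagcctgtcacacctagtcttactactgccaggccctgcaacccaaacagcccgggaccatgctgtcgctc
The Pdpn window held 2 GC boxes, at 1 and 44 bases from the start, and no TATA box, CCAAT box or AP-1 site. The Plet1 window held a TATA box at -30, a CCAAT box (on the other strand) at -183 and an AP-1 site at -144, and no GC box. Of 32851 RefSeq promoters of the same length, 35.7% held a GC box, 13.6% a TATA box, 37.4% a CCAAT box and 7.8% an AP-1 site. The E-box CANNTG, found in 72.3% of them, occurred at -144 and 24 in Pdpn and at -247 in Plet1, and is not capitalised. None of the motifs overlapped another of a different kind. GC content was 48.7% for Pdpn and 52.3% for Plet1, against a median of 52.7% over all promoters. The RefSeq start of Pdpn lies upstream of the gene end that the files give. A match describes the letters only.

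Itga6 and Itgb4 encode the alpha and beta chains of the integrin that binds laminin-332 at hemidesmosomes; the alpha chain also pairs with the beta-1 chain (Itgb1), while the beta-4 chain pairs only with alpha-6. Itga6 lies on the plus strand of chromosome 2 (71787083 to 71856758) and Itgb4 on the plus strand of chromosome 11 (115974725 to 116008356). Itga6 stood at 157, 123 and 122 RPKM in WT cTEC and at 85.5, 105 and 111 in KO cTEC. In mTEClo it stood at 160, 127 and 161 for WT and 93.9, 101 and 94.7 for KO. In both populations the WT libraries were all higher. In mTEChi the order turned, with 62.3, 57.9 and 63.6 RPKM for WT and 81.2, 76.7 and 81.6 for KO. Itga6 had the narrowest range of the set, 2.44-fold between its highest and lowest group means. Itgb4 stood at 136, 91.7 and 124 RPKM in WT cTEC and 70.2, 82.6 and 91.6 in KO cTEC, a margin of less than 1 RPKM between the nearest libraries. In mTEClo its values were 97.1, 87.1 and 102 for WT and 68.6, 78.2 and 79.1 for KO. In mTEChi they were 30.5, 27.2 and 32.4 for WT and 22.1, 21.3 and 21.7 for KO. Itgb4 kept the order of WT above KO in all 3 populations.

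Fst encodes follistatin, a secreted protein that binds activin and blocks its receptor access. It lies on the minus strand of chromosome 13 (114452262 to 114458730). Its RPKM was 120, 98.8 and 128 in WT cTEC and 38.2, 75.4 and 86.0 in KO cTEC. In mTEClo it was 53.5, 45.4 and 56.5 for WT and 16.2, 17.7 and 22.5 for KO. These groups were well apart, the highest KO mTEClo library lying below the lowest WT one. In mTEChi follistatin transcript was scarce, at 2.99, 1.83 and 2.04 RPKM for WT and 0.692, 0.782 and 0.820 for KO. The range between the highest and lowest group means was 151-fold, from 116 ± 15.1 RPKM in WT cTEC to 0.765 ± 0.0659 in KO mTEChi (SD, n = 3).

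Mgp encodes matrix Gla protein, a small secreted protein that depends on vitamin K for its carboxylation, inhibits calcification of matrix and binds BMPs. It lies on the minus strand of chromosome 6 (136872435 to 136875805). WT cTEC libraries held 426, 446 and 353 RPKM and KO cTEC libraries 141, 310 and 334. In mTEClo the values were 759, 830 and 790 for WT, close together, and 276, 307 and 298 for KO. In mTEChi they fell to 33.0, 26.3 and 24.9 for WT and 4.70, 5.83 and 5.34 for KO. The 6 groups covered a 150-fold range (149.9), and only KO mTEClo and KO cTEC overlapped among neighbours in the order. Mgp was the most abundant of the 7 genes in WT mTEClo, at 793 ± 35.5 RPKM (SD, n = 3).

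All 7 genes were lower in WT mTEChi than in WT mTEClo, and none was higher. Of all tested genes, 72.8% were called in that comparison, 31.1% lower and 41.6% higher. The median difference of the 7 was -2.18 on the log2 scale, against 0.12 over all tested genes. The secreted factors differed most. Mgp was 28.4-fold lower (log2 difference -4.83 ± 0.23 SE, limma adjusted p = 4.23e-11) and Fst 22.1-fold lower (-4.47 ± 0.24, adjusted p = 1.68e-10). Pdpn was 8.13-fold lower (-3.02 ± 0.16, adjusted p = 1.1e-10) and Ly6a 4.54-fold lower (-2.18 ± 0.16, adjusted p = 4.04e-09). The integrin chains differed less, by -1.66 ± 0.13 for Itgb4 (adjusted p = 8.96e-09) and -1.28 ± 0.11 for Itga6 (adjusted p = 5.63e-08). Plet1 differed least, at -0.87 ± 0.23 (adjusted p = 0.00302). None of these genes had overlapping libraries, but the share of all tested genes without overlap is not given here. All 7 were called lower under every alternative tried for this comparison.

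Among KO libraries, all 7 genes were again lower in mTEChi than in mTEClo, where 67.1% of all tested genes were called, 43.7% lower and 23.4% higher. Mgp was 54.6-fold lower (log2 difference -5.77 ± 0.23), Fst 21.7-fold lower (-4.44 ± 0.24) and Pdpn 19.6-fold lower (-4.29 ± 0.16). The differences were -2.73 ± 0.23 for Plet1, -2.57 ± 0.16 for Ly6a and -1.79 ± 0.13 for Itgb4, and the largest limma adjusted p of these 6 was 2.82e-08. The call for Itga6 was marginal: the difference was -0.27 ± 0.11 (adjusted p = 0.047), turned to 0.13 (adjusted p = 0.43) when libraries were centred on their median gene, and missed the threshold when any single library of these groups was left out.

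**Figure D2:**
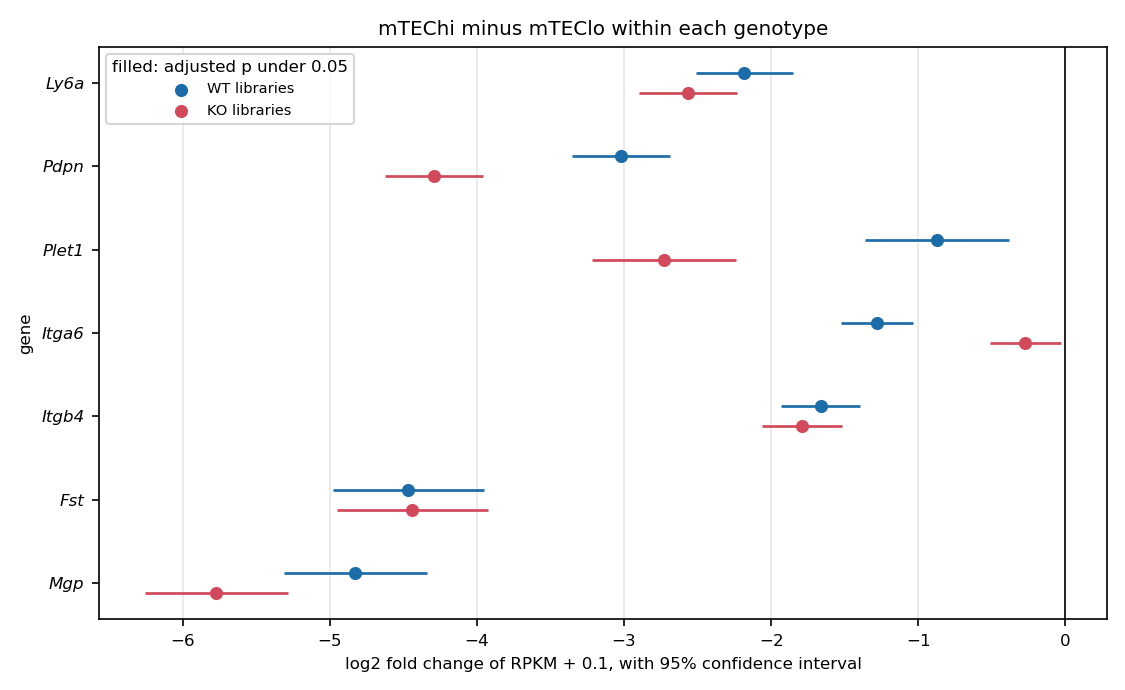
Log2 fold change of RPKM + 0.1 between mTEChi and mTEClo for each gene, within WT (blue) and within KO (red) libraries; points are limma estimates from 3 libraries a group, bars 95% confidence intervals, and filled points have an adjusted p under 0.05. All points lie below 0. Pdpn, Plet1 and Mgp lie further below in KO, as do Ly6a and Itgb4 by a smaller margin, and Itga6 lies closer to 0 in KO.

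Loss of Aire went with lower levels of 6 of the 7 genes in mTEChi and a higher level of Itga6. The background in that comparison was large and one-sided: 62.4% of all tested genes were called, 52.8% lower (10269) and 9.57% higher (1862), and the median gene was at -0.39. That split depended on scaling, with 5579 lower and 7097 higher after centring each library on its median gene, and 4808 lower and 6064 higher after quantile normalization. The median of the 7 genes was -1.44. Mgp fell the furthest, from 28.1 ± 4.32 to 5.29 ± 0.568 RPKM (SD, n = 3 each; log2 difference -2.38 ± 0.23 SE, limma adjusted p = 2.22e-07). Plet1 was 3.55-fold lower (-1.83 ± 0.23, adjusted p = 4.34e-06), Pdpn 2.86-fold lower (-1.51 ± 0.16, adjusted p = 5.12e-07) and Ly6a 2.24-fold lower (-1.17 ± 0.16, adjusted p = 8.17e-06). After the same centring, these differences were -1.85 for Mgp, -1.30 for Plet1, -0.99 for Pdpn and -0.64 for Ly6a, all with adjusted p at or below 0.003.

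The other members depended more on how libraries were scaled. Fst was 2.71-fold lower in KO mTEChi (-1.44 ± 0.24, limma adjusted p = 8.17e-05), but -0.42 (adjusted p = 0.20) after quantile normalization, and its level there was below 1 RPKM. Itgb4 was 1.38-fold lower (-0.47 ± 0.13, adjusted p = 0.00464), a direction that turned to 0.06 (adjusted p = 0.74) after centring on the median gene. Itga6 was higher (0.38 ± 0.11, adjusted p = 0.0085), and 0.91 (adjusted p = 3.3e-05) after centring. Some markers of other cell types were also lower in KO mTEChi, where 52.8% of all tested genes were. These were 8 of 10 fibroblast genes (Dcn was higher, 1.04), 7 of 10 endothelial and 4 of 8 pericyte genes (2 were higher). They also included 5 of 8 macrophage and dendritic (1 was higher), 5 of 11 thymocyte and 2 of 5 B cell genes. The pericyte, thymocyte and B cell shares were no higher than that of all genes. Counts after centring are not given here for these lists. Summed levels were 79.7 to 84.9 RPKM in WT and 47.9 to 58.3 in KO mTEChi for fibroblast genes, 19.3 to 25.1 and 10.3 to 12.3 for endothelial genes, and 360 to 392 and 361 to 393 for macrophage and dendritic genes. Their part in the levels of the 7 genes was not tested.

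**Figure D3:**
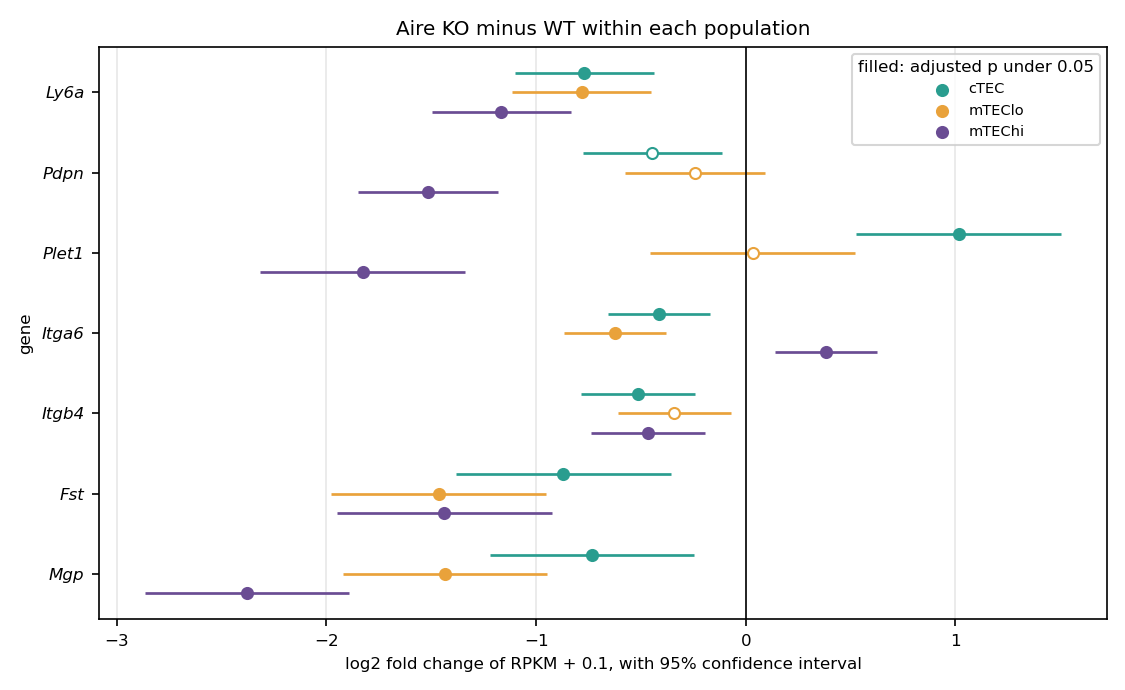
Log2 fold change of RPKM + 0.1 between KO and WT within cTEC (green), mTEClo (orange) and mTEChi (purple) for each gene; points are limma estimates from 3 libraries a group, bars 95% confidence intervals, and filled points have an adjusted p under 0.05. Ly6a, Pdpn, Itgb4, Fst and Mgp lie below 0 in all 3 populations, Plet1 lies on opposite sides of 0 in cTEC and mTEChi, and Itga6 lies above 0 in mTEChi alone.

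In mTEClo, 4 of the 7 genes were lower in KO and none was higher, with 16% of all tested genes called, 8.04% lower and 7.93% higher. The secreted pair differed most. Fst was 2.76-fold lower (log2 difference -1.46 ± 0.24, limma adjusted p = 0.00106) and Mgp 2.70-fold lower (-1.43 ± 0.23, adjusted p = 0.000835). Ly6a was 1.72-fold lower (-0.78 ± 0.16, adjusted p = 0.00354) and Itga6 1.54-fold lower (-0.63 ± 0.11, adjusted p = 0.00212). Itgb4 was at -0.34 (95% interval -0.61 to -0.07, adjusted p = 0.0821) and Pdpn at -0.24 (-0.58 to 0.09, adjusted p = 0.332), neither past the threshold. Plet1 was at 0.03, with an interval from -0.45 to 0.52. The median gene of all tested was at -0.04, and the 7 genes had a median of -0.63. In the same comparison 3 of 8 pericyte and smooth muscle genes were lower and none higher (Notch3 -1.30, Tagln -0.73 and Myh11 -0.58), and the list summed to 438 to 593 RPKM in KO and 681 to 832 in WT mTEClo. Of macrophage and dendritic genes, 2 of 8 were higher (Lyz2 1.69, Cd68 0.87), with sums of 80.1 to 153 RPKM in KO and 35.1 to 43.5 in WT. Of fibroblast genes, Pdgfrb (1.21) and Col3a1 (0.85) were higher and Dcn (-0.88) lower. Their part in the differences of the 7 genes was not tested.

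In cTEC, 5 of the 7 genes were lower in KO and Plet1 was higher, with 20.1% of all tested genes called, 6.76% lower and 13.3% higher. Fst was at -0.87 ± 0.24 (limma adjusted p = 0.018), Ly6a at -0.77 ± 0.16 (0.00239), Mgp at -0.73 ± 0.23 (0.0331), Itgb4 at -0.51 ± 0.13 (0.00935) and Itga6 at -0.42 ± 0.11 (0.0175). Plet1 was 2.02-fold higher (1.02 ± 0.23, adjusted p = 0.00528), and Pdpn was at -0.44 (adjusted p = 0.0573). These calls rest on the spread estimated over all 18 libraries: with the 6 cTEC libraries alone limma called 0 of the 7 genes (5 had an unadjusted p under 0.05). Without KO cTEC replicate 1, or without WT cTEC replicate 1, it called 2 of the 7, Ly6a and Plet1. Without KO cTEC replicate 1 the differences were also smaller, at -0.51 for Fst and -0.34 for Mgp. KO cTEC replicate 1 was the lowest library of its group for 6 of the 7 genes and the highest for Plet1. Pdpn in turn was called lower under 5 of 16 alternatives. These included quantile normalization (-0.49, limma adjusted p = 0.024) and centring on the median gene (-0.58, 0.018).

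Markers of mature medullary cells moved in the same comparison. Of 10 such genes, 5 were called higher in KO cTEC and none lower, and the sum of the list was 2215 to 2575 RPKM in KO cTEC against 2086 to 2190 in WT cTEC. The claudin gene Cldn4 stood at 93.7, 45.0 and 54.8 RPKM in KO cTEC and 8.40 to 12.4 in WT cTEC. Its highest KO cTEC value was in replicate 1, as for Aire. Cldn4 is used to mark medullary precursors, but here it was highest in mTEChi. It stood at 154 to 181 RPKM in WT mTEChi, 231 to 251 in KO mTEChi and 42.7 to 54.6 in WT mTEClo. Of 10 fibroblast genes, 4 were lower in KO cTEC (Col1a1 -1.75, Dpt -1.29, Col1a2 -1.07 and Col3a1 -0.98) and 1 was higher (Pdgfrb, 0.92). The list summed to 233 RPKM in KO cTEC replicate 1, 460 and 473 in the other KO cTEC libraries and 467 to 514 in WT cTEC. Most of each sum was Dcn, which was not called (-0.41, limma adjusted p = 0.32). Dcn stood at 166, 389 and 392 RPKM in KO cTEC and 358 to 410 in WT cTEC. Of 8 macrophage and dendritic genes, 3 were higher (Lyz2 1.75, Cd14 1.31 and Cd68 0.63), with sums of 124 to 169 RPKM in KO and 30.2 to 71.6 in WT cTEC. The part of these genes' cells in the differences of the 7 genes was not tested.

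The effect of genotype differed between populations for 4 genes. Against mTEClo, the difference between KO and WT in mTEChi was lower by 1.27 for Pdpn (interaction -1.27 ± 0.22, limma adjusted p = 0.000215), by 1.86 for Plet1 (-1.86 ± 0.33, 0.000219) and by 0.95 for Mgp (-0.95 ± 0.32, 0.0252), and higher for Itga6 (1.01 ± 0.16, 0.000102). Of all tested genes, 46.9% were called in that interaction, 40.9% lower and 6.01% higher, whose median gene was at -0.39. The median of the 7 genes was -0.38, close to that of all genes. Against cTEC, the interaction was -1.07 ± 0.22 for Pdpn (limma adjusted p = 0.00085), -2.84 ± 0.33 for Plet1 (3.21e-06), -1.65 ± 0.32 for Mgp (0.000555) and 0.80 ± 0.16 for Itga6 (0.000709), where 49.9% of all tested genes were called, 44.8% lower and 5.13% higher, and the medians were -0.57 for the 7 genes and -0.44 for all. The shares called were near those of all genes in both interactions. Both interactions use the same mTEChi libraries. After centring on the median gene, Plet1 and Itga6 were called in both, Pdpn only against mTEClo (-0.73, adjusted p = 0.017; against cTEC -0.41, adjusted p = 0.15) and Mgp only against cTEC (-0.98, adjusted p = 0.021; against mTEClo -0.41, adjusted p = 0.33). For Fst the effect in mTEChi and that in mTEClo differed by 0.03, with a 95% interval from -0.70 to 0.75; after quantile normalization that difference was 1.04 (adjusted p = 0.041). Scaling also gained calls for other members. Itgb4 was called against cTEC after centring on the median gene (0.71, limma adjusted p = 0.0082). Quantile normalization gave calls for Ly6a against mTEClo (-0.64, limma adjusted p = 0.0031) and against cTEC (-0.40, 0.039). Between mTEClo and cTEC, limma called 0 of the 7 genes (2 had an unadjusted p under 0.05), and 4.24% of all tested genes, 0.776% higher and 3.46% lower.

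Measured against cTEC, the 2 medullary gates were unlike. In WT mTEClo, 2 of the 7 genes were higher than in WT cTEC and 3 lower, where 42.7% of all tested genes were called, 24.6% higher and 18.2% lower. Plet1 was 4.06-fold higher in WT mTEClo (log2 difference 2.02 ± 0.23, limma adjusted p = 3.47e-06) and Mgp 1.95-fold higher (0.96 ± 0.23, 0.00283). Fst was 2.23-fold lower (-1.15 ± 0.24, 0.00106) and Pdpn 1.67-fold lower (-0.74 ± 0.16, 0.00121). Ly6a was at -0.40 ± 0.16 with an adjusted p of 0.0497, a call that was lost without a filter on low values, with other pseudocounts, without a variance trend and when any single library of these groups was left out. Itga6 (0.16) and Itgb4 (-0.28) did not pass, and their libraries overlapped. Itgb4 passed under 4 of 17 alternatives. Among them were quantile normalization (-0.37, limma adjusted p = 0.018), centring on the median gene (-0.41, 0.034) and the replicate number as a block within genotype (-0.28, 0.023).

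In WT mTEChi, 6 of the 7 genes were lower than in WT cTEC and Plet1 was higher, where 78.4% of all tested genes were called, 31.8% lower and 46.6% higher. Fst was 49.2-fold lower, Mgp 14.6-fold lower (14.55), Pdpn 13.6-fold lower, Ly6a 5.99-fold lower, Itgb4 3.85-fold lower and Itga6 2.17-fold lower, with limma adjusted p from 8.06e-12 to 1.81e-07. Plet1 was 2.22-fold higher (adjusted p = 0.000254). Among KO libraries all 7 were lower in mTEChi than in cTEC, Plet1 included (-1.69 ± 0.23, adjusted p = 6.63e-06), with 67.8% of all tested genes called, 41.2% lower and 26.6% higher. For Itga6 that difference was -0.32 (adjusted p = 0.0206) and turned to 0.08 after centring on the median gene. In KO mTEClo against KO cTEC, Plet1 was higher (1.04 ± 0.23, adjusted p = 0.00232), Fst (-1.75 ± 0.24, 4.78e-05), Pdpn (-0.54 ± 0.16, 0.0139) and Ly6a (-0.41 ± 0.16, 0.0492) were lower, and the other 3 did not pass, against 36.8% of all tested genes called, 19.3% higher and 17.5% lower. With only the 6 libraries compared, Plet1 and Fst alone were called there. The KO cTEC and KO mTEClo libraries of Ly6a overlapped, its call was lost in 9 of 17 alternatives, and leaving out 1 library moved it between -0.58 and -0.22, the latter without KO cTEC replicate 3.

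The balance between the integrin chains shifted with the population. The ratio of Itga6 to Itgb4 in RPKM was 1.16 ± 0.173 in WT cTEC and 1.23 ± 0.0295 in KO cTEC (SD, n = 3 each). It was 1.57 ± 0.0974 in WT mTEClo and 1.28 ± 0.0849 in KO mTEClo. It reached 2.04 ± 0.081 in WT mTEChi and 3.68 ± 0.0769 in KO mTEChi. The libraries of WT and KO did not overlap in mTEChi or in mTEClo, and the ratio was higher in KO in the former and lower in KO in the latter. With 3 libraries against 3, the exact two-sided permutation test cannot go below 0.1, the value it gave in 5 of the 6 comparisons run (0.12 adjusted over the 6), and it gave 0.7 for KO against WT in cTEC. Since both chains come from the same library, a factor that multiplies every gene of a library leaves the ratio as it is.

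**Figure D4:**
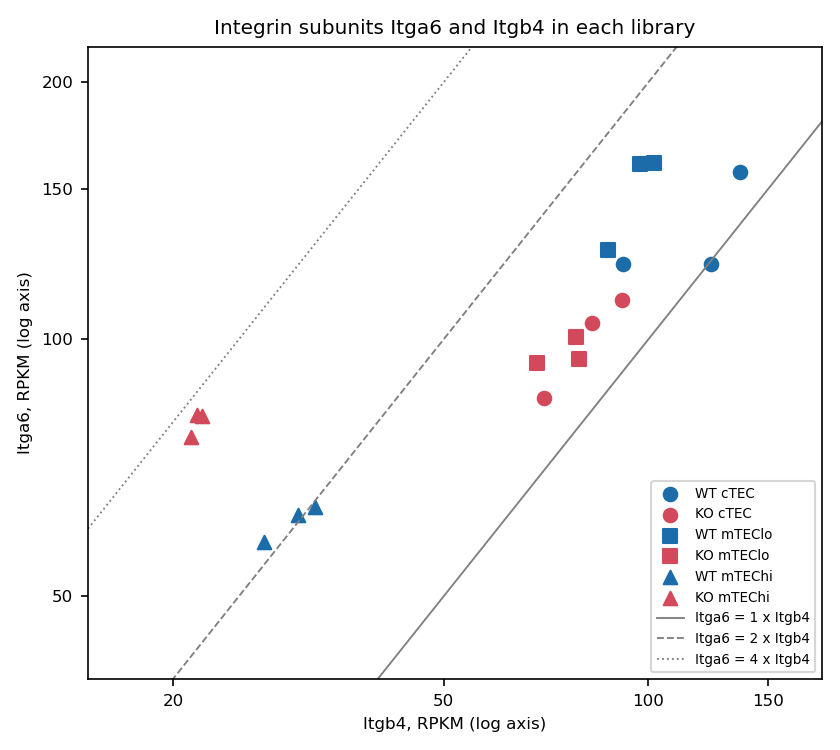
Itga6 against Itgb4 in RPKM (both axes log) for the 18 libraries, by population (shape) and genotype (blue WT, red KO), with lines at ratios of 1, 2 and 4. The WT mTEChi libraries lie near the line of ratio 2 and the KO mTEChi libraries near that of ratio 4, apart from the other 12 libraries.

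Genes that work with the members were read from lists chosen for their roles, which hold the members themselves. Of 12 genes of the hemidesmosome and laminin-332, 11 were lower in WT mTEChi than in WT mTEClo and 1 was higher. Lamb3, the laminin beta-3 chain, went from 85.7 ± 7.41 to 10.5 ± 1.07 RPKM (log2 difference -3.02, limma adjusted p = 2.8e-12). Lama3, its alpha-3 chain, differed by -2.14 and Cd151, a tetraspanin of hemidesmosomes, by -2.16. The exception, Col17a1, a transmembrane collagen of the same junction named here after its values were seen, was higher by 1.23. The median of the list was -1.42. Between KO and WT mTEChi, 8 of the 12 were lower and Itga6 alone was higher, with Lamb3 at -1.92, Lama5 at -1.36 and Cd151 at -1.13, but after centring on the median gene 3 were lower and 5 higher. In mTEClo, 6 were lower in KO, among them Lamb3 (-0.68) and Lama3 (-0.68), and 1 (Col17a1, 0.65) was higher.

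Of 24 ligands, receptors, antagonists and targets of activin and BMP, 15 were lower and 6 higher in WT mTEChi than in WT mTEClo. Beside Fst and Mgp, the BMP antagonist Chrd was lower (-2.83, from 11.9 ± 1.06 to 1.60 ± 0.305 RPKM). The BMP target genes Id1 and Id3, named after their values were seen, stood at 126 ± 11.7 and 178 ± 8.68 RPKM in WT mTEClo and at 8.93 ± 1.18 and 22.2 ± 2.21 in WT mTEChi. Between KO and WT mTEChi 18 were lower and 3 higher (13 lower and 4 higher after centring on the median gene). Chrd was at -2.50, the activin receptor Acvr1b at -1.17 and Smad4, the shared mediator of both pathways, at -0.73. In mTEClo 9 were lower in KO and 1 was higher, with Mgp, Fst and Smad4 (-0.33) the firmest.

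The Ly6 family, read in 16 genes, was split between the gates of WT mice: 9 were higher and 4 lower in WT mTEChi than in WT mTEClo. Ly6f (4.62) and Ly6i (3.89) were higher, while Ly6a and Ly6e (-0.94), the 2 most abundant of the family in WT mTEClo, were lower. Between KO and WT mTEChi 15 of the 16 were lower, with Ly6f at -5.30, Ly6c2 at -4.68, Ly6d at -2.29 and Ly6e at -0.66, and Ly6i alone was higher (0.85); after centring on the median gene 12 were lower and 1 higher. Ly6d, a surface protein of the same family, stood at 238 ± 24.8 RPKM in WT mTEChi and 48.7 ± 5.44 in KO mTEChi.

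For podoplanin and its partners, 5 of 8 genes were lower and 3 higher in WT mTEChi than in WT mTEClo. The galectin Lgals8 (-0.98) and the cytoskeletal linker Rdx (-1.05) were lower, as was the tetraspanin Cd9, the most abundant (-0.36). Between KO and WT mTEChi, 4 were lower and 1 (Msn, 0.71) was higher, with the hyaluronan receptor Cd44 at -1.17, but the split was 3 lower and 4 higher after centring on the median gene. The share lower, 4 of 8, was near the 52.8% of all tested genes. Clec1b, which encodes the receptor CLEC-2, stood at 2.23 ± 0.132 RPKM in WT mTEChi and at 0.0689 to 0.270 in KO mTEChi. Of 7 genes of vitamin K-dependent carboxylation, 5 were lower and 2 higher in WT mTEChi than in WT mTEClo, with the anticoagulant Pros1 at -3.31 and the growth factor Gas6 at -1.70. The osteocalcin genes Bglap and Bglap2 were the 2 higher, at 5.98 ± 0.843 and 2.13 ± 0.772 RPKM in WT mTEChi. Between KO and WT mTEChi 5 were lower and Gas6 (0.41) was higher (3 lower and 2 higher after centring). Of 11 basal and junctional epithelial genes, 7 were lower and 3 higher in WT mTEChi than in WT mTEClo, with the basal keratins Krt14 (-2.70) and Krt5 (-2.44) and the transcription factor Sox9 (-1.43) lower. Cldn4 went the other way, at 154 to 181 RPKM in WT mTEChi and 42.7 to 54.6 in WT mTEClo. Between KO and WT mTEChi 7 were lower and 3 higher (4 lower and 4 higher after centring), with Krt15 at -3.36 and Krt5 at -2.12. The 3 higher were Cldn3 (0.60), Cldn4 (0.50) and Sox9 (0.39). Between KO and WT mTEClo this list was split. Krt15 (2.23), Cldn3 (1.02), Cldn4 (0.93) and Sox9 (0.38) were higher in KO, Trp63 (-0.49) and Krt5 (-0.44) were lower, and the rest were not called.

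**Figure D5:**
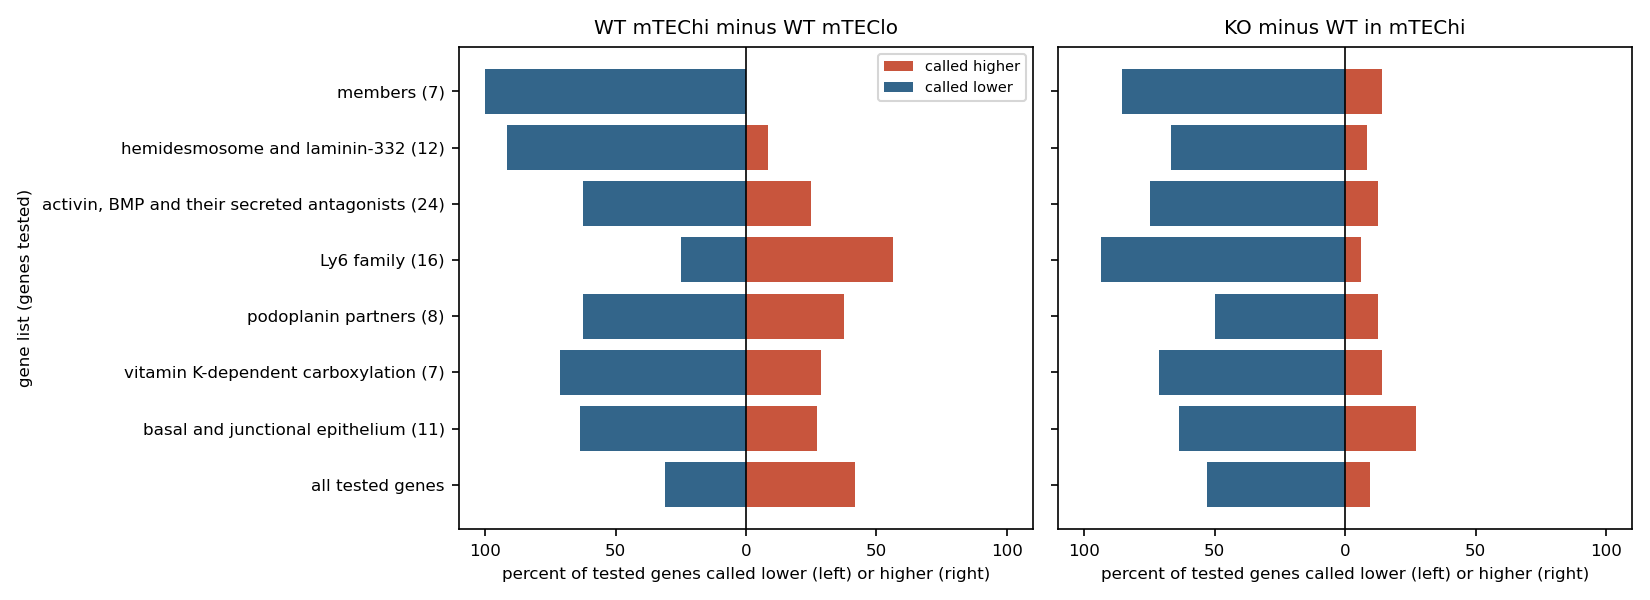
Percent of the tested genes of each list that were called lower (blue, to the left) or higher (red, to the right) in WT mTEChi against WT mTEClo and in KO against WT mTEChi, with the number tested in brackets and all tested genes at the bottom. All 7 members and 11 of 12 hemidesmosome genes were lower in the former comparison, where 31.1% of all tested genes were.

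Of 8 pericyte and smooth muscle markers, 5 moved with the members between the WT gates, while fibroblast markers were split. In WT mTEClo the 8 pericyte and smooth muscle genes summed to 681 to 832 RPKM, and in WT mTEChi to 192 to 214, with 5 called lower and 1 higher. Tagln, an actin-binding protein of smooth muscle, stood at 313 to 368 RPKM in WT mTEClo, 11.98 to 21.4 in WT mTEChi and 4.20 to 5.48 in KO mTEChi. The 10 fibroblast genes summed to 108 to 150 RPKM in WT mTEClo, 79.7 to 84.9 in WT mTEChi, 47.9 to 58.3 in KO mTEChi and 467 to 514 in WT cTEC, with 5 lower and 3 higher in WT mTEChi against WT mTEClo. Col1a1, a defining fibroblast collagen, was highest in WT mTEChi at 11.6 to 14.6 RPKM and at 1.001 to 1.35 in WT mTEClo. Of the other lists, mature medullary genes had 10 of 10 higher, cortical genes 4 higher and 3 lower of 10, endothelial genes 2 lower of 10, thymocyte genes 3 higher of 11, macrophage and dendritic genes 8 higher of 8 and B cell genes 4 higher of 5 in WT mTEChi against WT mTEClo. That comparison called 41.6% of all tested genes higher and 31.1% lower, so the cortical split was near that of all genes. No gene of these cell type lists was at 0 in every library of a group. Their part in the levels of the 7 genes was not tested.

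Across the 18 libraries, log2 levels of Ly6a, Pdpn, Itgb4, Fst and Mgp ran closely together, with Pearson r from 0.938 to 0.984 between any pair. Itga6 was at 0.743 to 0.833 with these 5, and Plet1 at 0.156 to 0.612 with the other 6. The libraries share their 6 groups, so these values describe the order of the groups. Among 14693 other genes, the profiles most like each member's were those of Nynrin (r = 0.994) for Ly6a, Antxr1 (0.999) for Pdpn, Arhgef17 (0.995) for Itgb4, Pik3ip1 (0.995) for Fst and Iigp1 (0.996) for Mgp. For Itga6 the closest was Steap4 (0.957) and for Plet1 it was Trpm6 (0.985), which stood at 1.77 RPKM in WT mTEClo, 1.08 in WT mTEChi and 0.128 in KO mTEChi. The next in order were Slc35f1 and Mbtps1 for Ly6a, Ajuba and Dpp6 for Pdpn, Cd300lf and Arsi for Plet1, Carm1 and AI837181 for Itga6, Nfic and Igfbp4 for Itgb4, Rcan3 and Zfp740 for Fst, and Osmr and Shisa2 for Mgp.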

How the data were processed

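The 18 RNA-seq libraries (3 per group) came as 1 table each. The deposited tables give an RPKM value per gene and, in another column, base coverage per gene (signal), both made by the authors. The submitters' processing notes name CASAVA 1.8.2 and build mm10; the sources used here do not say how reads shared between genes were counted. Whole reads could not be recovered, since 9.72 to 18.8% of coverage values up to 2000 bases were multiples of 100, so no count test was run. Coverage served only for depth.

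Genes with at least 0.1 RPKM in 3 libraries (19451) were tested, all 7 members among them. log2(RPKM + 0.1) was fitted in limma 3.58.1 (R 4.3.3) over all 6 groups with a variance trend, and p-values were adjusted by Benjamini-Hochberg over all tested genes in each of 12 comparisons. The fit was tested on simulated data. The labels do not say what a replicate number marks. In the data, same-numbered libraries deviated together within a genotype (closest to their own number in 16 of 18 pairs, 9 of 9 in WT) but not across genotypes (2 of 27), and all 3 pairs of WT cTEC with WT mTEClo had r over 0.1 (0.107 to 0.168), so a block within genotype was added after seeing the data. Ratios were compared by exact permutation (scipy 1.17.1). Strand came from a gene annotation of the same assembly. Members and gene lists were chosen with earlier results of these data known. Named genes are all members and, from each list, up to 3 called genes with the smallest adjusted p and the most abundant gene; further genes, among them those that make up small counts and those given as markers, were named after their values were seen. The most alike genes had the highest Pearson r over 18 libraries among genes with a mean of at least 1 RPKM in a group. Alternatives changed the pseudocount, the filter, the scaling, the libraries in the fit, the variance model and the replicate block, and left out each library in turn. Some genes that the naming rule picks are not reported here. Ccl21a and Ly6g matched no row and were not used here.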

Additional observations from a re-analysis of the deposited data

Results flagged for a closer look

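The change from WT to KO differed between populations for 4 of the 7 genes, by the interaction term of the limma fit; of all tested genes, 46.9% were called in the interaction of mTEChi with mTEClo and 49.9% in that of mTEChi with cTEC, so the count is near the background. For mTEChi against mTEClo the difference on the log2 scale was -1.27 for Pdpn (adjusted p = 0.000215), -1.86 for Plet1 (0.000219), 1.01 for Itga6 (0.000102) and -0.95 for Mgp (0.0252). For mTEChi against cTEC it was -1.07 for Pdpn (adjusted p = 0.00085), -2.84 for Plet1 (3.21e-06), 0.80 for Itga6 (0.000709) and -1.65 for Mgp (0.000555). These 8 values kept their sign under every alternative; the call was lost under 6 alternatives for Mgp against mTEClo and under 1 for Pdpn against cTEC. In mTEChi the median of all tested genes was itself 0.39 lower in KO (log2 median -0.39).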

How the results depend on the processing

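Of 1533 values of the 7 genes under the alternatives, 1421 kept their direction and side of the threshold, 60 lost the call, 20 gained it and 32 changed sign, of which 3 had been called; the cause was not tested. After centring on the median gene, Itgb4 between KO and WT mTEChi was at 0.0582, Itga6 between KO mTEChi and KO mTEClo at 0.128 and Itga6 between KO mTEChi and KO cTEC at 0.0769. The interaction of mTEChi with mTEClo then was 0.1536 for Ly6a and 0.412 for Itgb4, that of mTEChi with cTEC 0.2666 for Ly6a and 0.0956 for Fst, and that of mTEClo with cTEC 0.1129 for Ly6a. Quantile normalization gave 0.4759 for Fst (mTEChi with cTEC) and 0.2403 for Ly6a (mTEClo with cTEC), and a pseudocount of 0.01 gave -0.0715 for Fst (mTEChi with mTEClo). With only the libraries compared, 0 members were called between KO and WT cTEC (18 of all genes, against 3908) and 2 between KO mTEClo and KO cTEC (3761 of all genes, against 7153). Leaving out 1 library gave 2 to 7 members between KO and WT cTEC, 2 to 4 between KO mTEClo and KO cTEC and 0 to 2 in the interaction of mTEClo with cTEC (476 to 1545 of all genes against 824, and 144 with only the libraries compared). It gave -0.0704 to 0.1365 for Plet1 between KO and WT mTEClo, where counts of all genes fell from 3105 to as low as 1480 (without WT mTEClo replicate 3; 1790 without WT mTEClo replicate 1, 1982 and 1919 without KO mTEClo replicates 1 and 2). Between KO mTEClo and KO cTEC it gave -0.1622 to 0.0273 for Itga6 and -0.1334 to 0.488 for Mgp. Among interactions it gave -0.1114 to 0.2269 for Fst (mTEChi with mTEClo), -0.0715 to 0.2149 for Itgb4 (mTEChi with cTEC), and -0.1855 to 0.1836 for Ly6a and -0.0023 to 0.305 for Pdpn (mTEClo with cTEC). Scaling moved the share of calls that were higher by over 10 percentage points in several comparisons of all genes. Centring gave 7417 higher and 5252 lower between KO mTEChi and KO mTEClo (4548 and 8500 as reported), 8213 and 5089 between KO mTEChi and KO cTEC (5174 and 8007), 3820 and 4818 between WT mTEClo and WT cTEC (4779 and 3533), 2140 and 3529 between KO and WT cTEC (2593 and 1315), 5675 and 4388 in the interaction of mTEChi with mTEClo (1169 and 7950) and 6870 and 4616 in that of mTEChi with cTEC (997 and 8714). Quantile normalization gave 5761 and 7651 between WT mTEChi and WT mTEClo (8097 and 6055) and 6344 and 8319 between WT mTEChi and WT cTEC (9063 and 6178). With the replicate number as a block over all libraries, 1 member call was lost, that of Itga6 between KO mTEChi and KO mTEClo (-0.27, adjusted p = 0.052). With the number as a block within genotype, chosen after seeing the data and possible for 9 of the 12 comparisons, 1 was gained, that of Itgb4 between WT mTEClo and WT cTEC (-0.28, adjusted p = 0.023), and no other member call changed; between genotypes within a population that block cannot be fitted.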
